A study of Mus musculus with 5 samples.

Results

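The data described here are 3 RNA-seq libraries from the proximal jejunum of newborn mice, the control libraries 1, 2 and 3 of a series of 5 libraries. They were picked as the control group by their labels, with earlier results of these data known. The mutant libraries of the series were not analysed here. The mice carried 1 floxed and 1 wild-type allele of Dnmt1 (genotype Dnmt1 L/+), were littermates of Dnmt1 mutants and were at postnatal day 0. No Cre is named in the labels of these mice. Intestines were fixed in methacarn and embedded in paraffin, and intervillus cells were cut out by laser capture microdissection, a method in which a laser lifts chosen cells from a section on a slide. Areas were taken where neighbouring sections stained for Ki67, the protein of Mki67 and a mark of dividing cells. The levels of Mki67 and of other genes of cell division are thus tied to how the tissue was chosen. Between 2.3 and 33.3 ng of RNA per sample of the series was amplified to cDNA before sequencing.

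Villi of the small intestine carry absorptive and secretory cells, and in the newborn mouse the dividing epithelium lies in the intervillus regions between them, since crypts form only after birth. Cells of these regions depend on Wnt and Notch signals and give rise to enterocytes, goblet cells, enteroendocrine cells, tuft cells and, later, Paneth cells. Newborn enterocytes of the jejunum take up milk fat, package it into apolipoprotein B particles and digest lactose.

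The 3 libraries held 13357219, 13101222 and 10530445 reads counted on genes. Of 22869 genes in the table, 13312 (58.2%) had at least 1 count in 1000000 reads (CPM) in all 3 libraries and are termed detected, and 2990 had no read in any library. With 36988886 reads in all, a gene with no read can have had at most 0.0811 CPM, the limit that 3 counts allow. That limit covers counting error only, because amplified reads are not independent molecules. Levels of different genes were compared on the deposited FPKM (fragments per kilobase of transcript, scaled to library size), and levels of 1 gene in different libraries on CPM. The median of a gene list is over all its genes in the table, detected or not. Triples of values are in the order control 1, control 2, control 3, and ± is the SD over these 3 libraries. The deposited FPKM of control 3 is low against its counts (CPM per kilobase over FPKM had medians of 1.02, 1.05 and 1.22 in controls 1, 2 and 3). The ± of an FPKM carries this offset. It can be narrower than the spread in CPM for genes that are high in control 3, and wider for genes that are low there. Whether each library came from a separate mouse is not said in the labels, so the SD may be partly technical.

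Reads were spread over many genes. The median detected gene stood at 7.66 FPKM, and the quartiles were 2.66 and 18.8 FPKM. Genes between 10 and 100 FPKM, 5221 of them, held 56.3% of all reads, and the 420 genes between 100 and 1000 FPKM held 22.02%. Only 19 genes reached 1000 FPKM, and these held 6.14%. The 100 genes of highest CPM took 17.2%, 18.8% and 16.4% of the reads in controls 1, 2 and 3. Control 2 was the most concentrated of the libraries and control 3 the least.

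**Figure D1:**
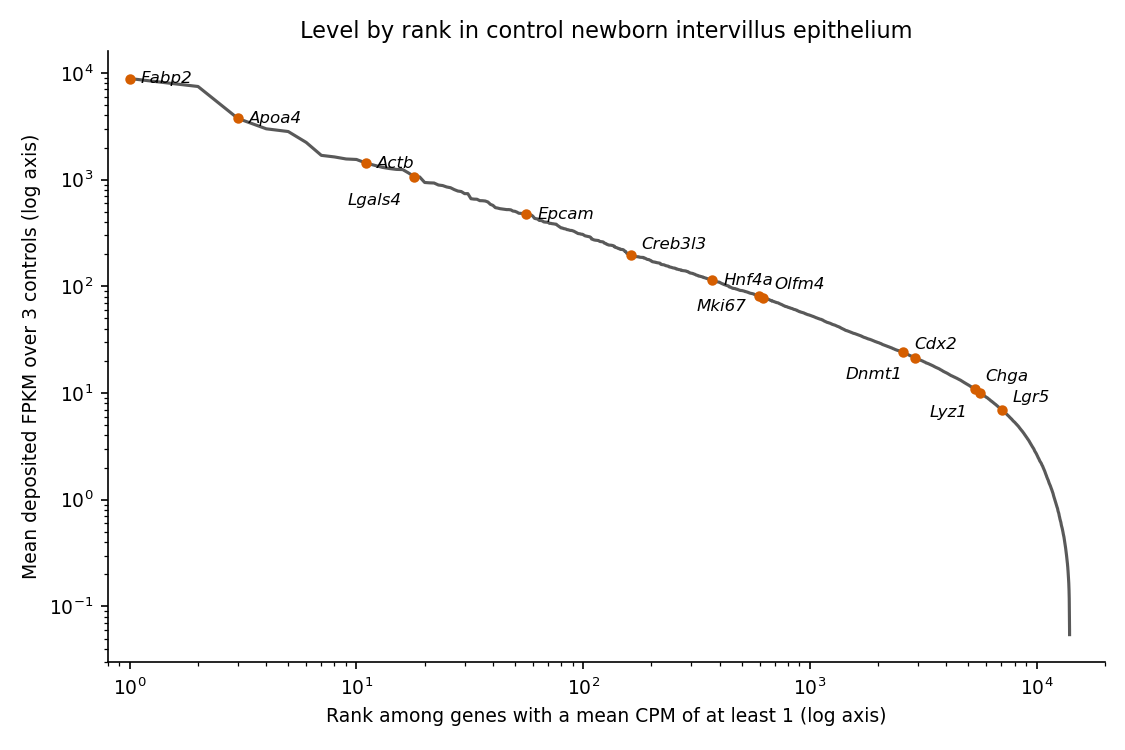
Mean deposited FPKM of each gene with a mean CPM of at least 1 over the 3 controls (vertical, log axis) against its rank (horizontal, log axis), with named genes as points. Fabp2 leads at 8856 FPKM, Epcam stands at 472 FPKM and the stem cell gene Lgr5 at 6.97 FPKM, just under the median detected gene.

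Genes of fat uptake and export headed the order of levels. Fabp2, the intestinal fatty acid binding protein, had the highest mean level of all genes at 8856 ± 3884 FPKM, with 7719.9, 11235 and 5099.7 CPM in controls 1, 2 and 3. Fabp1, the liver-type fatty acid binding protein, came next at 7462 ± 3186 FPKM, with 4597, 7381 and 3609 CPM. In both genes control 2 was highest and control 3 lowest, and the highest library held more than 2-fold the CPM of the lowest (2.20-fold for Fabp2 and 2.04-fold for Fabp1). Apoa4, an apolipoprotein that the gut secretes with dietary fat, followed at 3743 ± 1224 FPKM (8519, 10766 and 6364 CPM), again with control 2 highest and control 3 lowest. Apoa1, the main protein of high-density lipoprotein, stood at 2994 ± 742 FPKM (3739, 4996 and 3623 CPM).

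The DNA just before the start of these 4 leading genes is shown because patterns of 3 families of regulators with high levels in these libraries, HNF4, Cdx and GATA, can be looked for in it. Each line gives the 250 bases before the start of the gene, 5′ to 3′ on the gene's own strand, from RefSeq on build GRCm38.p6. Capitals mark matches to 4 letter patterns: TATAAA on the given strand (the TATA box), and on both strands CAAAGNNCA (a pattern of HNF4 proteins), TTTATNG (a pattern of Cdx proteins) and AGATAA (a pattern of GATA proteins). A TATAAA that follows a C would also match TTTATNG on the opposite strand, which does not occur in these 4 windows.
Fabp2 (chr3:122894822-122895071, + strand): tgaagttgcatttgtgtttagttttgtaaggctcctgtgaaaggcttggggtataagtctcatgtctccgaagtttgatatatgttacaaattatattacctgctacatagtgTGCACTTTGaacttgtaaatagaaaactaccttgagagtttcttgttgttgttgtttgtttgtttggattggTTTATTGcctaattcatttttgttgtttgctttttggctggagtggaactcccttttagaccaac
Fabp1 (chr6:71199629-71199878, + strand): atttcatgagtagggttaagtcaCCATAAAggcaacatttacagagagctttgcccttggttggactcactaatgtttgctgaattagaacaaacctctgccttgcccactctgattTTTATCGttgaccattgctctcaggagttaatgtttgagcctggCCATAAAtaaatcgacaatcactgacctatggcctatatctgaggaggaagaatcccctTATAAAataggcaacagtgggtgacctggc
Apoa4 (chr9:46240594-46240843, + strand): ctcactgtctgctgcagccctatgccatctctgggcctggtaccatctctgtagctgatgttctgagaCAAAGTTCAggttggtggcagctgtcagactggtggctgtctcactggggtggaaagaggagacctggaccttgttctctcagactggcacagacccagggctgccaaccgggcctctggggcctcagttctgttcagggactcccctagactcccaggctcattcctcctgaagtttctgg
Apoa1 (chr9:46228380-46228629, + strand): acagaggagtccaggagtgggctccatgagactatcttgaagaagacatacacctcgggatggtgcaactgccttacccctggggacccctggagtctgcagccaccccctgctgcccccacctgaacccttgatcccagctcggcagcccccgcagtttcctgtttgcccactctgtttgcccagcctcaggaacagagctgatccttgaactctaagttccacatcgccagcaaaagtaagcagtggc

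The window of Fabp2 held a CAAAGNNCA match on the opposite strand, whose first base lies 137 bases before the start, and a TTTATNG match at 65 bases before it. The window of Fabp1 held TATAAA at 30 bases before the start and 3 TTTATNG matches, at 227, 133 and 89 bases. Apoa4 held CAAAGNNCA at 182 bases before the start, and none of the 4 patterns occurred in the window of Apoa1. Of the 20 genes of highest FPKM, 16 had a window in the RefSeq table, and 4 of these held CAAAGNNCA (Fabp2, Apoa4, Rbp2 and Plac8) where 5.49% of all 32851 windows did. TTTATNG occurred in 7 of the 16 and in 9.81% of all windows, AGATAA in 3 and in 9.99%, and TATAAA in 2 and in 7.59%. A gene with several windows was counted if any of them matched. Counts of genes and shares of windows are therefore not like for like, and a difference between them was not tested. All of these are matches of letters in a short window, and no binding was measured.

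Behind the first 4 genes, the level of 2210415F13Rik was 2822 ± 527 FPKM. Apoc2, the cofactor of lipoprotein lipase, had 2233 ± 646 FPKM, and Rbp2, the cellular retinol binding protein of enterocytes, 1688 ± 480.0 FPKM. Lgals6 and Lgals4, which encode near-identical galectins of the gut epithelium, were listed at 1631 ± 99.6 and 1065 ± 67.02 FPKM. The counts of Lgals6 were 99.0% to 99.1% of those of Lgals4 in every library, so the same reads appear to have been counted for both and their separate levels are uncertain. Fth1 (ferritin heavy chain) stood at 1562 ± 428 FPKM, Dbi (the acyl-CoA binding protein) at 1545 ± 103 FPKM and Actb (cytoplasmic actin) at 1431 ± 20.99 FPKM. Others of the first 20 were Plac8, Anpep (aminopeptidase N of the brush border), Atp5g3 and Atp5b (subunits of the mitochondrial ATP synthase), Tmsb4x (thymosin beta 4), Prap1 and Rpl41, between 1059 and 1363 FPKM. Neighbours in this order could not be separated by their spread, since the ranges of the 3 libraries overlapped for all 19 neighbouring pairs and only 5 pairs kept their order in every library. The set was steadier than its order, with 17 genes among the first 20 of every library.

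Ordered by CPM, which favours long transcripts, the first gene was Apob. Apob encodes the large apolipoprotein on which fat particles are built, and it drew 10383, 11926 and 8825 CPM while its level per length was 530.5 ± 122 FPKM. Anpep reached 7185, 5244 and 6341 CPM and Cps1, the carbamoyl phosphate synthase of citrulline and arginine synthesis, 5928, 4441 and 5203 CPM. Both were highest in control 1 and lowest in control 2, opposite to the fatty acid binding proteins, for which control 2 was highest. Oat, the ornithine aminotransferase, had 2636, 3564 and 1523 CPM, with control 3 far below the others. Of the 20 genes of highest CPM, 11 were also among the 20 of highest FPKM.

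Genes of epithelial identity were high in all 3 libraries. All 23 genes of the epithelial list were detected and all 23 stood above the median detected gene, with a median of 94.1 FPKM. Epcam, the epithelial adhesion molecule, had 472 ± 60.2 FPKM (1324, 1428 and 1315 CPM), and its 3 libraries lay within 1.09-fold of each other. Vil1, which encodes the brush border protein villin, had 221 ± 22.3 FPKM (1009.9, 958 and 963 CPM). Krt19 stood at 484 ± 35.9 FPKM, Krt8 at 203 ± 12.9 FPKM, the tight junction gene Cldn7 at 194 ± 26.6 FPKM and the protease inhibitor gene Spint2 at 193 ± 30.9 FPKM. The members of the list moved little between libraries, with a median SD of 0.09 on the log2(CPM + 1) scale. All genes with a mean CPM of at least 1 had 0.19, and those of 100 to 1000 CPM, nearer the level of this list, had 0.14.

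Absorptive genes made up 5.91%, 7.05% and 4.95% of the reads in controls 1, 2 and 3 with 40 genes. Of these 38 were detected, and the median of all 40 was 65.3 FPKM. Beyond the apolipoproteins, Apoc3 stood at 806 ± 195 FPKM, Mttp (the transfer protein that loads fat onto apolipoprotein B) at 336 ± 53.9 FPKM and Alpi (intestinal alkaline phosphatase) at 312 ± 43.2 FPKM. These 3 and the other members outside the first 6 of a list are named for their roles and were chosen after their values were seen. The disaccharidases differed widely. Lct, lactase, had 154 ± 44.7 FPKM (1386, 1534 and 961 CPM), while Sis, the sucrase-isomaltase of the solid-food diet, had 1.08 ± 0.153 FPKM (8.09, 7.10 and 8.74 CPM) and Treh, trehalase, 2.08 ± 1.16 FPKM. Mgam, maltase-glucoamylase, lay between them at 64.6 ± 3.72 FPKM. Among sugar transporters, Slc5a1 (the sodium-glucose cotransporter) had 119 ± 15.7 FPKM, Slc2a2 51.6 ± 3.92 FPKM and the fructose transporter gene Slc2a5 9.09 ± 1.23 FPKM. The 2 members not detected were Plb1 at 0.0699 ± 0.0400 FPKM and Clca6 at 0.175 ± 0.0719 FPKM.

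The newborn gut takes up whole proteins by endocytosis and degrades them in lysosomes, and all 22 genes of the list for such enterocytes were detected at a median of 33.8 FPKM. Cps1 led it at 773 ± 140.4 FPKM. Fcgrt, the neonatal Fc receptor that carries maternal antibody across the epithelium, stood at 386 ± 143 FPKM, with 987, 1214 and 657 CPM, and was highest in control 2 and lowest in control 3. Lamp1 (a lysosome membrane protein) had 247 ± 21.8 FPKM, and the lysosomal enzyme genes Ctsz, Ctsb and Glb1 had 164 ± 55.4, 125 ± 10.2 and 92.1 ± 20.2 FPKM. Of the 22 genes, 14 were highest in control 2, against 28.3% of all genes with a mean CPM of at least 1.

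**Figure D2:**
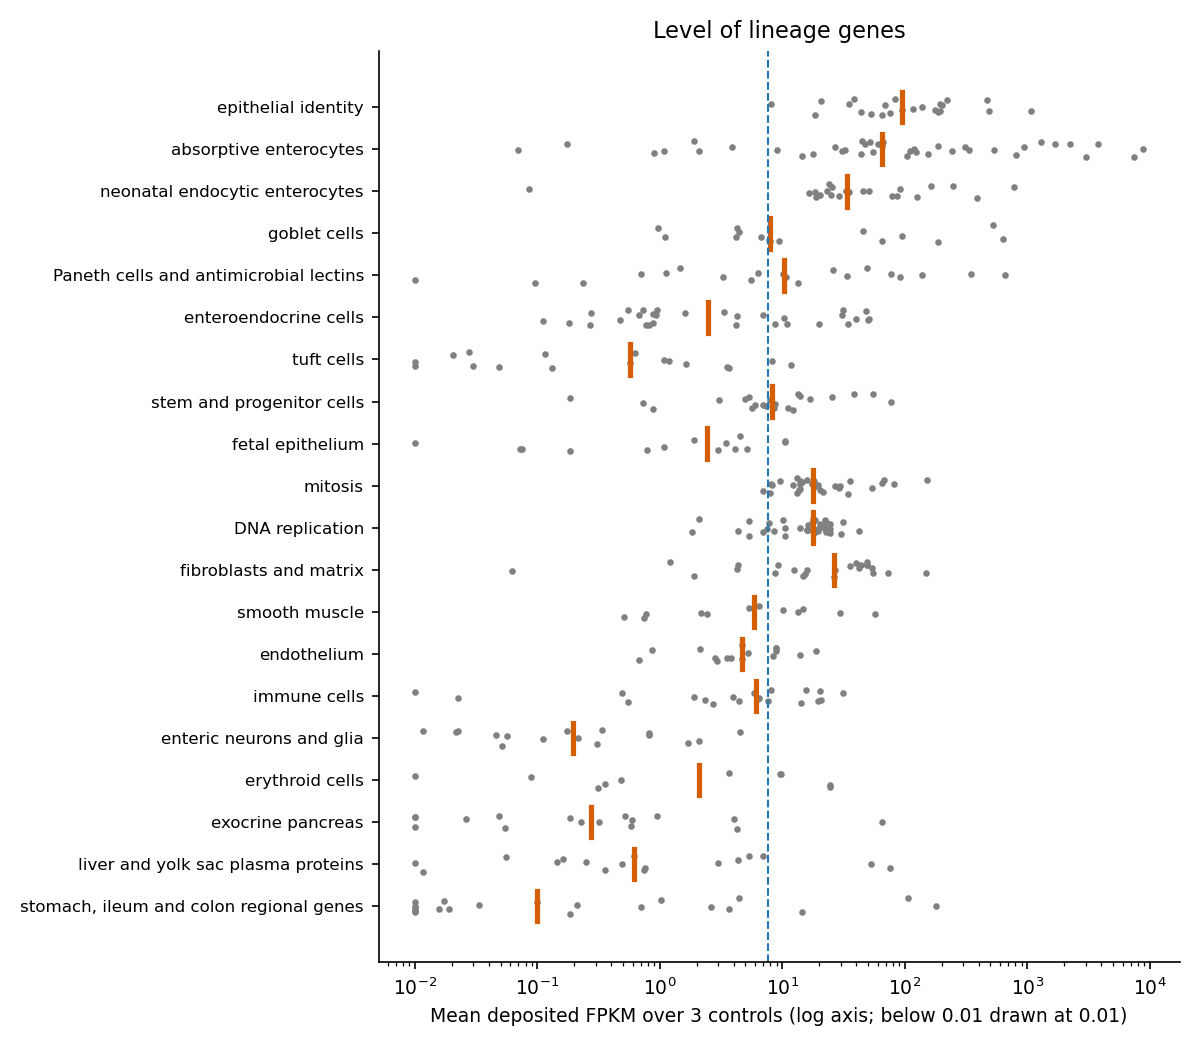
Mean deposited FPKM over the 3 controls (log axis) of every gene of 20 lists, 1 grey point a gene, with the list's median as an orange bar and the median of all detected genes, 7.66 FPKM, as a dashed line. Epithelial and absorptive lists lie to the right of the line, and the lists for tuft cells, enteric neurons, exocrine pancreas and other gut regions lie to its left.

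Secretory lineages were present at lower medians. The goblet cell list (15 genes; Muc2 was not analysed here) had 14 detected genes and a median of 7.91 FPKM, near that of all detected genes. Its leading members were far higher, with Spink4 at 634 ± 64.3 FPKM, Tff3 (trefoil factor 3) at 521 ± 86.6 FPKM and Agr2 (a disulfide isomerase needed for mucin folding) at 187 ± 49.2 FPKM. Guca2a, the guanylin gene, had 93.9 ± 21.6 FPKM, Clca3 64.9 ± 12.7 FPKM and Fcgbp, a mucus protein, 45.5 ± 13.4 FPKM. Control 3 was highest for 11 of the 14 detected goblet genes, where 35.8% of all genes were highest in that library. Tff3 gave 299, 283 and 443 CPM and Fcgbp 489, 379 and 755 CPM, so for both genes control 3 lay above the other libraries and those were closer to each other. Atoh1, the transcription factor that opens the secretory fate, went the other way, at 6.81, 5.04 and 2.37 CPM.

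Paneth cells appear in crypts after birth, yet several of their genes had reads. Of 20 genes in that list 14 were detected. The median of all 20 was 10.3 FPKM, and it was 12.2 FPKM without control 3. Defa24, a cryptdin (alpha defensin) gene, had 655 ± 157 FPKM, with 513, 478 and 375 CPM. The counts of Defa6 were 96.9% to 97.5% of those of Defa24, and reads from near-identical cryptdin genes cannot be assigned with certainty. The 15 alpha defensin genes of the table summed to 1128, 1068 and 823 CPM, and 7 of them were detected. Defa23 and Defa-rs7 had the same count in every library. The sum and the number detected may therefore count the same reads more than once. Defa21 had no read in any library. Lyz1, the lysozyme of Paneth cells, was low at 10.03 ± 5.85 FPKM (20.96, 24.7 and 9.69 CPM), and the matrix protease gene Mmp7 had 10.6 ± 2.33 FPKM. Mptx1, a mucosal pentraxin gene listed as 1810030J14Rik, had 348 ± 180.5 FPKM, Reg1 139 ± 71.3 FPKM, Defa17 91.6 ± 33.99 FPKM, Reg3b 77.2 ± 91.3 FPKM and Reg4 49.4 ± 8.86 FPKM.

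Enteroendocrine genes were detected for 26 of 30 members. The median of all 30 was 2.49 FPKM, and it was 1.44 FPKM without control 2 and 2.92 FPKM without control 3. Hormone genes led the list. Ghrl (ghrelin) stood at 51.4 ± 2.86 FPKM, Cck (cholecystokinin) at 50.04 ± 4.45 FPKM and Gip at 48.5 ± 20.8 FPKM, and Sst (somatostatin) at 31.6 ± 23.8 FPKM. Sst had 46.1, 10.8 and 17.2 CPM, with control 1 more than 2-fold above each of the other libraries, and Gip had 30.5, 64.8 and 38.5 CPM, with control 2 highest. Chga and Chgb, the granins of hormone granules, had 10.9 ± 2.99 and 34.5 ± 1.88 FPKM. Mlxipl, a glucose-responsive transcription factor also used by enterocytes, had 40.2 ± 13.8 FPKM. Neurog3, the factor that starts endocrine fate, was detected at 1.62 ± 0.554 FPKM with 55, 33 and 48 reads.

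Tuft cell genes were near the floor. Of 17 genes, 8 were detected, and the median of all 17 was 0.574 FPKM. The highest were Ltc4s (11.7 ± 5.89 FPKM), Ptgs1 (8.20 ± 2.14 FPKM) and Hpgds (3.68 ± 1.34 FPKM), enzymes of eicosanoid synthesis that immune cells also use. Dclk1, a defining tuft cell gene, had 11, 9 and 3 reads, Trpm5 had 4, 6 and 3 reads and Pou2f3, the lineage's master regulator, 2, 0 and 3 reads. Il25 and Gnat3 had none.

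Genes of stem and progenitor cells were all detected, 22 of 22, with a median of 8.27 FPKM. Olfm4, a secreted marker of stem cells and their daughters, was highest at 77.7 ± 13.2 FPKM (186, 139.5 and 222 CPM), with control 3 highest and control 2 lowest. Slc12a2, a salt cotransporter of crypt cells, had 55.1 ± 12.2 FPKM, Hopx 25.3 ± 6.65 FPKM and Prom1 (CD133) 16.9 ± 4.33 FPKM. Nr2e3, a nuclear receptor better known from photoreceptors, had 38.3 ± 10.97 FPKM. Lgr5, the R-spondin receptor that marks stem cells, had 6.97 ± 3.30 FPKM and 69.3, 49.5 and 24.98 CPM, from 926, 649 and 263 reads. Control 1 was highest and control 3 lowest. Ascl2, the stem cell transcription factor that Wnt induces, had 15.2, 12.8 and 4.84 CPM, and Axin2, a Wnt target and feedback inhibitor, 46.3, 36.3 and 15.7 CPM, both in the same order of libraries as Lgr5. A list of genes for fetal epithelium was lower, with 10 of 14 genes detected and a median of 2.44 FPKM. Krt7 led it at 10.4 ± 0.814 FPKM and Ly6a (Sca-1) followed at 10.4 ± 3.00 FPKM.

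Genes of cell division were expressed throughout, in areas that had been chosen by Ki67 staining. All 30 mitosis genes were detected and 29 stood above the median detected gene, with a median of 17.7 FPKM. Ube2c, an enzyme of the anaphase-promoting complex, had 151 ± 12.1 FPKM, and Mki67 had 81.1 ± 17.04 FPKM with 1260.1, 1318 and 1043 CPM. Ccna2 (cyclin A2) stood at 66.97 ± 9.54 FPKM, Top2a (topoisomerase II) at 64.8 ± 16.5 FPKM and Ccnb2 (cyclin B2) at 54.2 ± 5.34 FPKM. All 36 genes of DNA replication were detected too, at a median of 17.7 FPKM, led by the helicase subunit gene Mcm6 (42.1 ± 10.8 FPKM) and Pcna, the sliding clamp (31.5 ± 4.42 FPKM). Among G1 regulators, Cdk4 had 129 ± 27.2 FPKM and Ccnd2 (cyclin D2) 81.7 ± 8.21 FPKM, well over Ccnd1 (cyclin D1) at 13.6 ± 3.66 FPKM. Cdkn1c, the imprinted inhibitor p57, had 62.3 ± 15.9 FPKM and 124, 174 and 245 CPM, with control 3 highest and control 1 lowest. Cdkn2a and Cdkn2d had no read in any library.

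RNA of cells other than epithelium was present as well. In bulk samples such as these, fewer cells of a type and less RNA per cell cannot be told apart. Of 24 genes of fibroblasts and matrix 23 were detected, and the median of all 24 was 26.6 FPKM, above the median detected gene. Sparc, a matrix glycoprotein, stood at 148 ± 2.73 FPKM, Col6a2 at 72.6 ± 7.80 FPKM, Vim (vimentin) at 54.2 ± 7.06 FPKM, Col1a1 at 49.4 ± 2.49 FPKM and Col3a1 at 48.7 ± 2.58 FPKM. All 12 smooth muscle genes (median 5.89 FPKM) and all 16 endothelial genes (median 4.68 FPKM, and 4.36 FPKM without control 3) were detected. Among them were Acta2 (smooth muscle actin) at 57.3 ± 12.5 FPKM, Lyve1 at 18.8 ± 0.182 FPKM (63.1, 69.4 and 83.9 CPM) and Pecam1 at 13.9 ± 0.589 FPKM. Of 20 immune genes 16 were detected, with Tyrobp at 31.3 ± 8.23 FPKM and C1qc, a complement gene of macrophages, at 20.8 ± 3.20 FPKM. The summed CPM of the fibroblast list was 4037, 3995 and 4658, that of the endothelial list 402, 408 and 479, and that of the immune list 374, 382 and 318. The part of such cells in the levels of other genes was not tested.

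Genes of more distant tissues were mostly low. In the lists for enteric neurons, erythroid cells, exocrine pancreas and plasma proteins, the genes with no read were Hbb-y (an embryonic globin), Pnlip and Ptf1a. Enteric neuron and glia genes were detected for 5 of 16, and the median of all 16 was 0.195 FPKM. The highest were S100b at 4.47 ± 1.26 FPKM and Ret at 2.08 ± 0.794 FPKM. Erythroid genes were detected for 6 of 10, near the 58.2% of all genes, with the alpha globin genes Hba-a1 and Hba-a2 at the same counts (278, 300 and 254 reads), so that these cannot be told apart. Exocrine pancreas genes were detected for 5 of 16, and the median of all 16 was 0.274 FPKM. Ctrb1 (chymotrypsinogen B1) lay apart from the rest at 65.5 ± 17.2 FPKM (61.4, 65.8 and 116 CPM). Plasma protein genes of liver and yolk sac were detected for 6 of 17, with Ttr (transthyretin) at 75.9 ± 46.9 FPKM and Apoe at 53.2 ± 7.84 FPKM well above the others. Ttr followed the fatty acid binding proteins in its order of libraries, at 101, 208 and 58.02 CPM.

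Regional genes of the proximal intestine were mostly detected and those of other gut regions mostly not. Of 14 genes of the proximal intestine 12 were detected, and the median of all 14 was 25.5 FPKM. Among those detected were Fabp1, Lct, the iron exporter gene Slc40a1 at 69.3 ± 9.19 FPKM, the transcription factor gene Gata4 at 54.1 ± 6.02 FPKM and Onecut2 at 36.1 ± 6.02 FPKM. Pdx1, the factor of duodenum and pancreas, was detected at 4.65 ± 2.31 FPKM (9.36, 2.90 and 12.2 CPM), and Cckar had 1 read in all. Of 21 genes of stomach, ileum and colon 7 were detected. The median of all 21 was 0.0994 FPKM, and it was 0.0535 FPKM without control 1 and 0.0646 FPKM without control 3. The exceptions were Ostb and Osta, the pair that exports bile acids across the basolateral membrane and is highest in ileum of adults, at 179 ± 27.03 and 106 ± 15.4 FPKM. Ccl9 had 14.3 ± 2.78 FPKM, and Sox2, Gkn2, Tff1, Hoxb13 and Hoxd13 had no read. Of 39 Hox genes, which code position along the body axis, 13 were detected at a list median of 0.135 FPKM (0.0874 FPKM without control 3). The highest 4 were Hoxa2, Hoxa5, Hoxa3 and Hoxa4, all of group 5 or lower, at 4.96 ± 0.919, 3.93 ± 1.03, 3.41 ± 0.928 and 3.13 ± 0.924 FPKM. Among the 12 Hox genes without a read were Hoxa11, Hoxa13, Hoxb13, Hoxc9, Hoxc11, Hoxc12 and the genes Hoxd10 to Hoxd13, all of the posterior groups, and also Hoxb1 and Hoxd1.

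Of 109 transcription regulators, 105 were detected, and the median of all 109 was 13.1 FPKM. Creb3l3, a membrane-bound factor of lipid metabolism in liver and gut, was the highest at 196 ± 32.3 FPKM (652, 655 and 576 CPM). Ctnnb1, beta catenin, the coactivator of Wnt targets and a part of cell junctions, had 143 ± 23.3 FPKM (719, 808 and 724 CPM). Hnf4a, the nuclear receptor that drives enterocyte genes, had 113 ± 32.02 FPKM and 824, 709 and 563 CPM, with control 1 highest and control 3 lowest, while its paralog Hnf4g had 50.5 ± 1.38 FPKM with libraries close together (285, 304 and 315 CPM). The stress regulators Xbp1 and Nfe2l2 stood at 98.3 ± 6.21 and 97.9 ± 16.7 FPKM, and Klf5, a factor of dividing crypt cells, at 89.3 ± 0.768 FPKM (218, 208 and 249 CPM). Klf3, Atf4 and Trp53 (p53) followed with 83.7 ± 13.7, 65.6 ± 3.28 and 62.02 ± 8.65 FPKM.

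The 2 caudal factors of the intestine differed in level. Cdx1 had 68.7 ± 10.9 FPKM (181, 152 and 176 CPM) and Cdx2 23.99 ± 5.52 FPKM (74.2, 56.1 and 87.8 CPM), and Cdx1 was higher per length in every library (81.4, 62.3 and 62.5 against 28.1, 17.7 and 26.2 FPKM). The bile acid receptor gene Nr1h4 (FXR) stood at 62.5 ± 14.4 FPKM, Isx, the gut homeobox gene that controls vitamin A uptake, at 59.9 ± 20.3 FPKM, Gata4 at 54.1 ± 6.02 FPKM and Gata6 at 49.98 ± 6.39 FPKM. Isx was lowest in control 3 (176, 191 and 110.2 CPM), and Gata4 was highest there (259.7, 209.7 and 316 CPM). Sox2 was the regulator with no read. Ranges of the 3 libraries overlapped in all 14 neighbouring pairs of the first 15 regulators, and 3 pairs kept their order in every library. Control 3 was lowest in deposited FPKM for 12 of the 15 but lowest in CPM for 6, since the deposited FPKM of control 3 runs lower against its counts than in the other libraries.

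**Figure D3:**
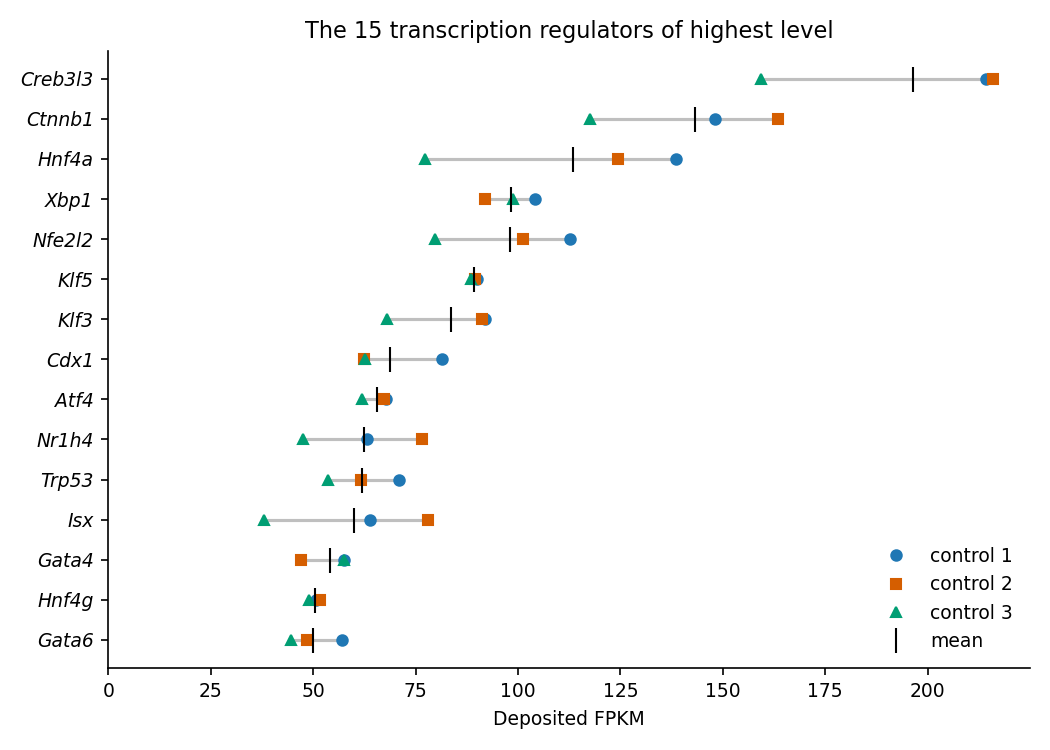
Deposited FPKM of the 15 transcription regulators of highest mean level in each control library (blue circles, orange squares and green triangles for controls 1, 2 and 3), with the mean as a black tick and the range as a grey line. Creb3l3 leads at 196 FPKM, and the ranges of neighbours overlap.

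Genes of the Notch pathway were mostly detected, 27 of 30, and the median of all 30 was 3.74 FPKM. Ncstn, a part of the gamma secretase that cuts Notch, had 40.1 ± 2.54 FPKM, and the inhibitor gene Numb had 26.6 ± 0.633 FPKM. Among ligands Dll1 had 6.43 ± 0.902 FPKM, Jag1 3.27 ± 0.334 FPKM and Dll4 1.74 ± 0.290 FPKM, and among receptors Notch1 had 4.72 ± 1.41 FPKM, Notch2 3.94 ± 0.356 FPKM and Notch3 1.40 ± 0.423 FPKM. The target Hes1 stood at 19.9 ± 8.81 FPKM, with 50.7, 38.8 and 24.2 CPM, so that control 1 was highest and control 3 lowest. Hes5, another target, had no read.

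Genes of Wnt ligands and R-spondins were mostly not detected, while those of Wnt receptors and regulators mostly were. Of 23 ligand and R-spondin genes 4 were detected. The list median of 0.0432 FPKM was 0.0307 FPKM without control 1, 0.0244 FPKM without control 2 and 0.0161 FPKM without control 3. Wnt4 had 3.13 ± 1.27 FPKM, Wnt2b 2.34 ± 0.892 FPKM and Wnt5a 1.93 ± 0.678 FPKM, while Wnt3, the ligand that Paneth cells later supply, had 0.465 ± 0.0634 FPKM (18, 25 and 21 reads) and Rspo3 19, 23 and 6 reads. Wnt1, Wnt3a, Wnt6, Wnt7a, Wnt7b, Wnt8a, Wnt8b and Wnt10a had none. Of 38 receptors and regulators 29 were detected, and the median of all 38 was 3.84 FPKM. Only 11 of the 38 stood above the median detected gene. Lgr4, the broadly expressed R-spondin receptor, had 33.4 ± 5.52 FPKM, above Lgr5 at 6.97 ± 3.30 FPKM, and Fzd5, the main frizzled receptor of gut epithelium, had 29.5 ± 4.53 FPKM. Gsk3b and Apc, of the complex that degrades beta catenin, had 24.4 ± 0.896 and 18.5 ± 0.269 FPKM, the coreceptor gene Lrp6 13.9 ± 1.45 FPKM and Rnf43, a ligase that removes frizzled receptors, 13.8 ± 5.20 FPKM. Fzd9 and Wif1 had no read.

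Hedgehog and BMP signals pass between epithelium and mesenchyme, and 32 of 38 genes of these pathways were detected. The median of all 38 was 3.03 FPKM. Of the hedgehog ligands, Ihh had 10.8 ± 2.41 FPKM (41.5, 27.2 and 34.3 CPM) and Shh 8, 3 and 2 reads. The receptor and target gene Ptch1 had 24.2 ± 4.62 FPKM and the target Gli1 4.59 ± 1.45 FPKM. Bmp7 led the BMP ligands at 25.4 ± 8.08 FPKM, before Bmp3 (14.4 ± 0.996 FPKM), Bmp4 (11.5 ± 2.35 FPKM) and Bmp2 (8.73 ± 0.682 FPKM). Their receptors Bmpr2 and Bmpr1a stood at 28.6 ± 1.56 and 24.3 ± 2.07 FPKM, the signal carrier Smad4 at 25.1 ± 4.202 FPKM and the target Id1 at 30.97 ± 7.04 FPKM. The BMP inhibitors Nog and Grem1 had 0, 3 and 4 reads and 18, 14 and 14 reads. In the EGF receptor family 13 of 16 genes were detected, with Erbb2 at 19.01 ± 3.84 FPKM, Erbb3 at 16.8 ± 2.70 FPKM and Egfr at 8.26 ± 1.66 FPKM. Errfi1, a feedback inhibitor of these receptors, was higher at 54.01 ± 4.50 FPKM, while the ligand Egf had 0.367 ± 0.0925 FPKM and Erbb4 0, 4 and 6 reads.

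The maintenance methyltransferase Dnmt1, of which these mice carry 1 floxed allele, stood at 21.4 ± 5.55 FPKM. It had 2240, 2163 and 1351 reads, or 168, 165 and 128 CPM, and control 3 was lowest. Its partner Uhrf1, which brings it to replicated DNA, had 17.8 ± 5.16 FPKM and the same lowest library (113, 104 and 75.02 CPM). The de novo enzymes were lower per length, with Dnmt3a at 12.7 ± 1.32 FPKM and Dnmt3b at 3.59 ± 0.858 FPKM, and the germline cofactor Dnmt3l had 1, 10 and 0 reads. Of the demethylating dioxygenases Tet3 had 13.7 ± 3.48 FPKM, Tet2 11.6 ± 0.662 FPKM and Tet1 1.17 ± 0.237 FPKM. Mbd2, a reader of methylated DNA, was the highest of the list at 48.8 ± 5.47 FPKM. Usp7, a deubiquitinase that binds Dnmt1, had 33.8 ± 4.26 FPKM and Mbd3, of the same domain family as Mbd2, 27.5 ± 3.99 FPKM. In all, 19 of 20 genes were detected, and the median of all 20 was 10.6 FPKM.

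Imprinted genes were mostly detected and germline genes mostly not. Of 28 imprinted genes 25 were detected, and the median of all 28 was 4.50 FPKM. The highest were the noncoding H19 at 295 ± 101 FPKM, Gnas at 261 ± 21.7 FPKM and Igf2 at 114 ± 11.8 FPKM. H19 had 1399, 875 and 932 CPM, with control 1 apart, while its neighbour Igf2 had 617, 530.5 and 646 CPM. Magel2 had no read. Of 29 germline genes 6 were detected. The median of all 29 was 0.0525 FPKM, and it was 0.0788 FPKM without control 1 and 0.0361 FPKM without control 2. Sycp3, a part of the meiotic synaptonemal complex, was the exception at 95.3 ± 34.9 FPKM, with 2186, 3047 and 1341 reads, and Piwil2 came next at 2.34 ± 0.475 FPKM. Tex101, Slc25a31, Piwil1, Stra8, Rhox2a and Rhox6 had no read.

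All 79 genes of cytosolic ribosomal proteins were detected, at a median of 52.9 FPKM, from 2.61 FPKM to 1152 FPKM for Rpl41. Rplp1, Rpl4, Rpl8 and Rps15 were also among the highest, between 469 and 739 FPKM. Genes often used as references ranged from 2.61 to 1431 FPKM. Actb (1431 ± 20.99 FPKM), B2m (933 ± 145 FPKM) and Eef1a1 (782 ± 73.3 FPKM) were among the highest of all genes, yet Gapdh, which encodes a glycolytic enzyme, had 2.61 ± 1.34 FPKM from 81, 42 and 81 reads. Ppia had 7.76 ± 2.21 FPKM and Actg1 5.43 ± 0.470 FPKM. These 3 genes have many processed copies in the genome, and the sources used here do not say how reads that match several places were counted, so their levels are uncertain. Such reads were not examined for the ribosomal protein genes either, and the same limit may apply to their levels. Hspa8, which encodes a constitutive chaperone, led the heat shock genes at 48.3 ± 13.1 FPKM, and Zfp36 the immediate early genes at 53.8 ± 4.57 FPKM. Of the genes of the sex chromosomes, Eif2s3y, Ddx3y, Uty and Kdm5d of the Y chromosome were detected in all 3 libraries, at 72.8, 72.97 and 75.1 CPM for Eif2s3y. Xist, the noncoding RNA of the inactive X chromosome, had 4.94, 5.50 and 3.99 CPM from 66, 72 and 42 reads.

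The 3 libraries resembled one another over most genes. Over the 13991 genes with a mean CPM of at least 1, the median SD of log2(CPM + 1) was 0.19. It was 0.29 for genes of 1 to 10 CPM, 0.17 for 10 to 100 CPM, 0.14 for 100 to 1000 CPM and 0.18 for the 61 genes above. The biological coefficient of variation, the spread beyond counting error estimated by edgeR over 13623 genes, was 16.9%, and it was between 15.3% and 19.12% when 1 library was left out. Pairwise Pearson correlations of log2(CPM + 1) across genes were 0.985 for controls 1 and 2, 0.982 for controls 1 and 3 and 0.978 for controls 2 and 3, where genes are not independent replicates. No pair was a repeat of 1 library, since the counts gave a chi-square per gene of 17.4, 14.6 and 25.2 and at most 223 genes had the same count in a pair. That chi-square takes reads as independent, which amplified reads are not, and it serves as a check for duplicates alone. The steadiest genes with a mean CPM of at least 10 were Gnptab (144, 144 and 144 CPM), Mtmr4 and Cct6a, and then Tacc3, Cdv3, Ccdc22, Ndufab1, 2310061I04Rik, Hdac6 and Vps35.

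**Figure D4:**
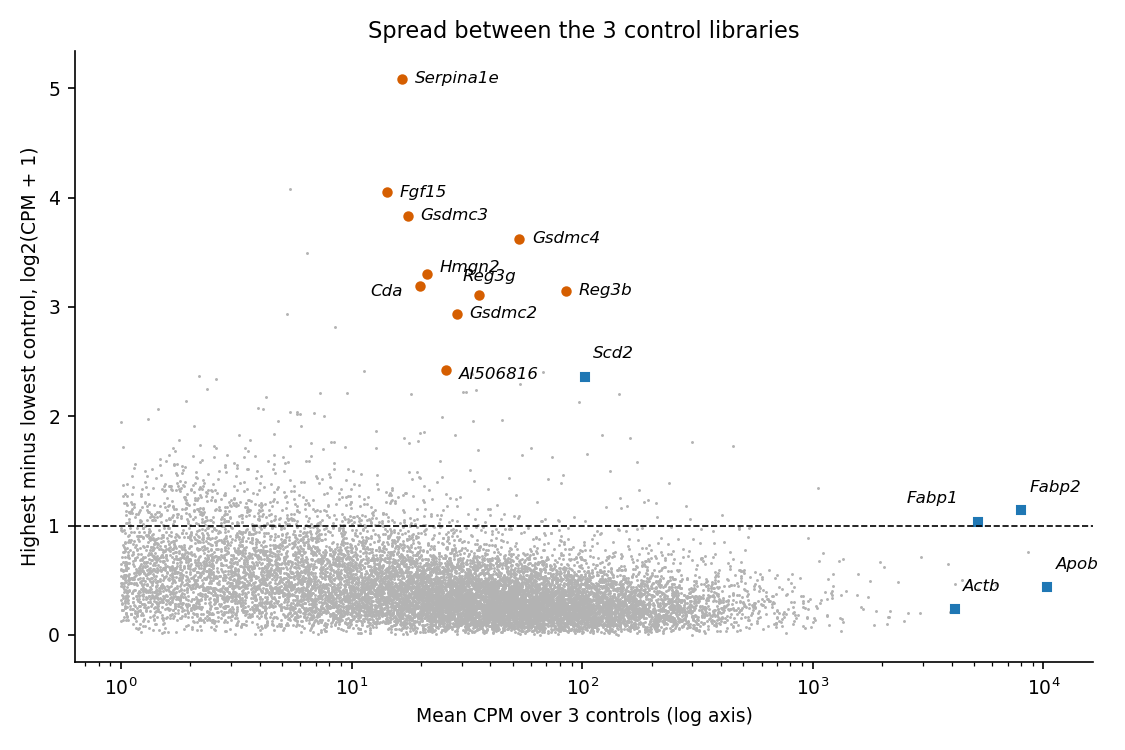
Difference between the highest and lowest control library in log2(CPM + 1) (vertical) against mean CPM (horizontal, log axis) for each of the 13991 genes with a mean CPM of at least 1. Orange points are the 10 widest genes with a mean CPM of at least 10, blue squares are other genes named in the text, and the dashed line marks a difference of 1.

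A minority of genes differed widely between the libraries. The range exceeded 1 on the log2 scale for 735 of 13991 genes (5.25%). Among the 10006 genes with a mean CPM of at least 10 it did so for 206 genes. Control 3 was the lowest library for 100 of these 206, and for 3198 of all 10006. Control 2 was the highest library for 91 of the 206, and for 2866 of all 10006. Serpina1e, which encodes an alpha-1 antitrypsin of plasma, was the widest, with 10, 6 and 512 reads, and control 3 held nearly all of them. Serpina1b, of the same family, also had most CPM in control 3 but in a narrower range (9.58, 14.7 and 28.8 CPM). Fgf15, the hormone that ileal bile acid sensing induces, had 118, 430 and 11 reads, with control 2 highest. Hmgn2 and Cda (cytidine deaminase) were low in control 1, with 33, 435 and 295 and 32, 394 and 283 reads.

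Gasdermin C genes were low in control 3. Gsdmc4 had 922, 1116 and 63 reads, Gsdmc3 291, 387 and 12 reads and Gsdmc2 519, 554 and 49 reads. The family summed to 132, 159 and 13.8 CPM over 6 genes, of which 4 were detected, and reads of its near-identical members may be shared. The antimicrobial lectin genes Reg3b and Reg3g instead stood out in control 2, at 33.6, 201 and 21.7 CPM and 13.3, 85.3 and 9.02 CPM, and in both genes controls 1 and 3 were low. Reg1 was lowest in that library (152, 73.5 and 258 CPM). In control 3, Scd2, a stearoyl-CoA desaturase, was higher than elsewhere (44.99, 42.1 and 221 CPM), as were H2-Q10 (13.03, 16.3 and 64.5 CPM) and Rsad2 (viperin, induced by interferon; 13.9, 14.5 and 43.97 CPM). Rpph1, the RNA of ribonuclease P, and AI506816 were lowest in control 2, at 58.9, 10.4 and 29.6 CPM and 39.1, 6.49 and 31.5 CPM.

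Control 3 had the most genes far from the other libraries. Of the 10006 genes, 92 differed by more than 1 on the log2 scale from the mean of the other libraries in control 3 (32 higher, 60 lower), 65 in control 2 (41 higher, 24 lower) and 31 in control 1 (17 higher, 14 lower). Control 3 was also the library with the fewest reads. By the median absolute difference in log2(CPM + 1) over all 13991 genes, the pairs with control 2 were no closer than those with control 3. This difference was 0.21 for controls 1 and 2, 0.20 for controls 1 and 3 and 0.25 for controls 2 and 3. The median SD was lowest, at 0.14, without control 2. The biological coefficient of variation, which uses TMM factors, was instead lowest without control 3. It was 15.3% there, 16.1% without control 2 and 19.12% without control 1, so the measures differ on which library stands apart.

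Whole lists shifted between the libraries as well. Among all genes with a mean CPM of at least 1, control 1 was lowest for 24.7%, control 2 for 42.3% and control 3 for 33.0%, and they were highest for 35.97%, 28.3% and 35.8%. For DNA replication, control 3 was lowest for 34 of 36 genes, with a median deviation of -0.34 from the mean of the other libraries on the log2(CPM + 1) scale. Mcm6 had 193, 195 and 151 CPM, Gins2 40.6, 40.6 and 25.4 CPM and Mcm7 83.8, 103 and 71.98 CPM. For mitosis genes control 3 was lowest in 19 of 30, with a smaller median deviation of -0.13. For stem and progenitor genes control 3 was lowest in 15 of 22 and control 1 highest in 18 of 22, with median deviations of -0.40 and 0.41. Myc, a Wnt target and driver of growth, had 70.4, 68.5 and 34.9 CPM, and Sox9, a factor of progenitors, 87.7, 87.7 and 50.3 CPM, so in both controls 1 and 2 were alike and control 3 was lower.

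Differentiated lineages did not shift as 1 group. Absorptive genes were highest in control 2 for 25 of 38 and lowest in control 3 for 22 of 38. Goblet genes had a median deviation of 0.60 in control 3 and -0.36 in control 2. Genes of fetal epithelium had 0.59 in control 3 and -0.43 in control 1, over 10 genes. The list of Paneth cell and antimicrobial lectin genes had -0.40 in control 3 over 15 genes, of which 10 were lowest there. Its summed CPM over all 20 genes was nevertheless highest in control 3 (1322, 1323 and 1607), where Mptx1 was high (366, 228 and 754 CPM). Tuft cell genes had -0.35 in control 3 over 9 genes. Fibroblast genes were highest in control 3 for 15 of 23 and endothelial genes for 10 of 16, while smooth muscle genes were lowest there for 8 of 12, as were immune genes for 9 of 17. Ribosomal protein genes were lowest in control 1 for 50 of 79. These counts describe 3 libraries, and the part of stroma, of depth or of the area captured in them was not tested.

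**Figure D5:**
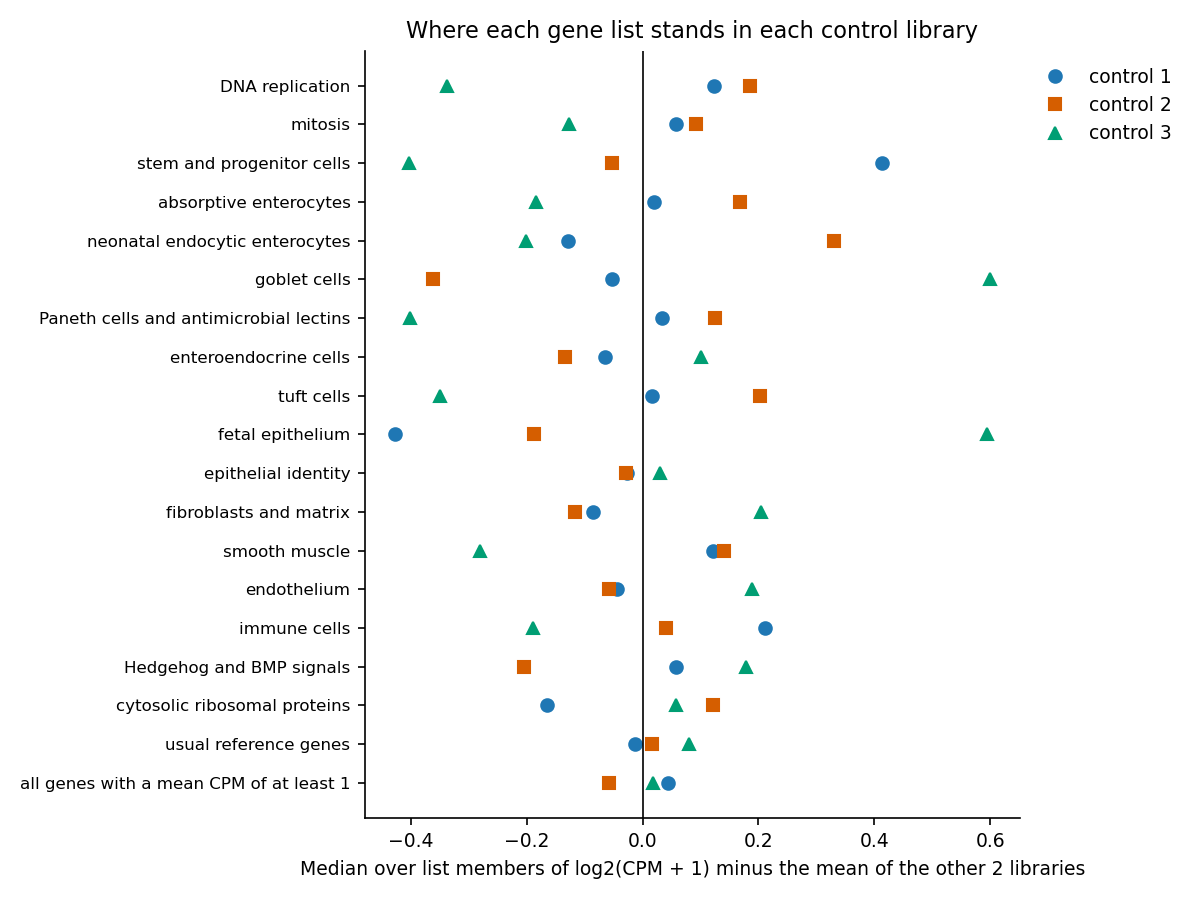
Median over each list's genes with a mean CPM of at least 1 of log2(CPM + 1) minus the mean of the other 2 libraries (horizontal), for control 1 (blue circles), control 2 (orange squares) and control 3 (green triangles). In control 3, stem, Paneth, tuft and DNA replication genes lie between -0.40 and -0.34 and the goblet and fetal lists near 0.6, while epithelial identity genes and usual reference genes lie near 0.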

How the data were processed

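Counts per RefSeq transcript and FPKM values were deposited by the authors for 28644 rows and the same libraries. The labels' protocols give amplification of the captured RNA with the Ovation RNA-Seq V2 kit, 300 ng of cDNA per library and single reads of 100 bp. The submitters' processing notes name the build mm9 and edgeR, while the sources used here do not name the aligner, the counting program or the treatment of reads that match several places. The deposited FPKM values scale with transcript length. The ratio of CPM per kilobase of annotated length to deposited FPKM had medians of 1.02, 1.05 and 1.22 in controls 1, 2 and 3 over 6562 transcripts, so libraries were compared on CPM.

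For each gene the row with the highest mean count over the 3 controls was kept, 22869 genes in all, and 3705 genes had several rows. Symbols changed to dates (41 rows) were restored from the transcript identifier. CPM is the count over the library's sum of kept rows. A gene was called detected at 1 CPM or more in all 3 controls, and SDs are of log2(CPM + 1). The biological coefficient of variation is the square root of the common dispersion of edgeR 4.0.16 (R 4.3.3) with TMM factors and an intercept alone. As there is 1 group, nothing was tested for difference, and the SD over 3 libraries limits the precision of every value. The spread estimate was run on simulated counts with independent reads and the same dispersion for every gene. That setting leaves out amplification, so it checks the calculation alone.

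Named genes are the 20 of highest mean FPKM and of highest mean CPM, the first 6 members of each of 36 lists and those without a read, 15 regulators, the 10 widest and 10 narrowest genes, and sex-linked genes. Some genes that this rule names are not reported here. Of 951 list entries 945 were found by symbol or older symbol. Muc2, Defa1, Sh2d6, Ahsp, Rhox5 and Rn18s were not analysed here. The lists and the choice of libraries were made with earlier results of these data known. Promoter windows are from RefSeq (GRCm38.p6), matched by symbol. Alternatives were leaving out each library, TMM scaling, other rows, filters and pseudocounts, and CPM in place of FPKM.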

Additional observations from a re-analysis of the deposited data

How the results depend on the processing

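Which genes lead depends on the scale. Of the 20 genes of highest FPKM, 11 were among the 20 of highest CPM, while 19 were kept when any library was left out and 17 when CPM per kilobase of annotated length, an alternative added after the data were seen, replaced the deposited FPKM. The count of detected genes was between 10965 (at least 5 CPM) and 14164 (at least 0.5 CPM), and the share of reads in the first 100 genes between 16.8% and 18.01% when a library was left out. The median SD of log2(CPM + 1) was 0.15 without a filter on low counts, 0.17 for genes with a mean CPM of at least 10, 0.22 on deposited FPKM and between 0.14 and 0.17 when a library was left out, the lowest without control 2. The biological coefficient of variation was between 15.3% and 19.12% when a library was left out, the lowest without control 3 and the highest without control 1. Of 180 alternative medians for the 36 lists, 168 moved by less than the SD between libraries and 12 by more, all 12 on leaving out a library. The 36 medians on TMM scaling could not move, because that scaling changes CPM and not the deposited FPKM. Leaving out 1 of 3 libraries also cannot shift the mean of a gene by a full SD. The count of 168 is therefore a weak check. Low lists rest on few reads, and levels near 0.0811 CPM are at the limit of depth. No paired analysis was possible because only 1 group was used and its replicate numbers do not recur in the other group.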

Other observations

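Several of the most abundant genes belong to none of the gene lists described above. The gene 2210415F13Rik had 2822 ± 527 FPKM and 3615, 5122 and 4541 CPM, with control 2 highest. Prap1, a proline-rich acidic protein that the gut secretes, had 1242 ± 219.8 FPKM and was highest in control 3 (999.8, 869.8 and 1463 CPM). S100g, the vitamin D-dependent calcium binding protein calbindin-D9k of the duodenum, had 662 ± 60.9 FPKM, and Spink3, a secreted trypsin inhibitor, 630.2 ± 211 FPKM. Dmbt1, a mucosal scavenger receptor, was among the 20 genes of highest CPM at 3944, 2965 and 4662 CPM. Cox6a1, Cox4i1 and Uqcr10, which encode parts of the mitochondrial respiratory chain, had 879.9 ± 58.2, 854 ± 44.4 and 617 ± 80.6 FPKM. P4hb, a protein disulfide isomerase that is also a subunit of the fat transfer protein, had 657 ± 158 FPKM, and Lgals2 and Lgals9, further galectins, 586 ± 58.4 and 524 ± 67.8 FPKM.

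Rows of noncoding transcripts held 2.04 ± 0.103% of the reads, and 609 of 2522 such genes were detected. Some of these rows belong to coding genes for which a noncoding variant had the most reads, such as Ankrd11 and Srsf3. Malat1 led them at 4082, 3567 and 4127 CPM and 383 ± 36.1 FPKM, and Gm12191 had 271 ± 45.6 FPKM. Kcnq1ot1, the long imprinted antisense RNA, had 689, 397 and 347 CPM but 4.01 ± 1.89 FPKM, since FPKM divides by the length of the transcript. Gas5 and Tug1 had 60.7 ± 11.9 and 35.5 ± 4.95 FPKM.

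Olfactory and vomeronasal receptor genes, best known from the nose, were mostly without reads. Of 1426 such genes 3 were detected, Olfr56, Vmn1r51 and Vmn1r53, and 765 had no read in any library. The level under which 95% of them lay was 0.190 CPM. Vmn1r53 was the highest, at 7.64, 7.40 and 6.93 CPM.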
